A study of Bos taurus with 24 samples.

Results

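ND1, CYTB, COX1, COX2, COX3 and ATP6 are 6 protein-coding genes of the mitochondrial genome. Each encodes a subunit of the respiratory chain or of ATP synthase, and the 6 were chosen by Ensembl gene ID from the 27607 IDs of the deposited count tables. All 6 had a row in both tissues: ENSBTAG00000043558 (ND1), ENSBTAG00000043550 (CYTB), ENSBTAG00000043561 (COX1), ENSBTAG00000043556 (COX2), ENSBTAG00000043560 (COX3) and ENSBTAG00000043584 (ATP6). The tables give IDs without names, so the pairing of names and IDs is that of the list. The RefSeq gene table of assembly ARS-UCD2.0 places these 6 genes on the mitochondrial chromosome in the order ND1, COX1, COX2, ATP6, COX3, CYTB. The rows of the count tables follow the same order, with 9, 2, 2, 0 and 11 entries between successive members in both.

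The respiratory chain passes electrons from nutrient breakdown to oxygen and pumps protons across the inner mitochondrial membrane, and ATP synthase uses that gradient to make ATP. Most subunits of these complexes are encoded in the nucleus, and a small core set is encoded in the mitochondrial genome. Mitochondrial messengers arise from long precursor RNAs that span many genes and are then cut, largely at the transfer RNAs that lie between them. Liver and the mammary gland both depend on mitochondria, liver for gluconeogenesis, urea synthesis and fatty acid oxidation, and the gland for the energy demand of milk synthesis.

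Liver and mammary biopsies came from multiparous Holstein cows in late gestation, whose milking had ceased 60 d before expected calving and who were housed in 1 barn from 35 d before expected calving. Control cows had a fixed cycle of 16 h of light, at 150 lx, and 8 h of dark. Phase shift cows had the same day length, with the cycle moved forward by 6 h every 3 d for 2 weeks, and had gone through at least 5 shifts when both tissues were sampled at 21 d before expected calving. There were 24 libraries of ribosome-depleted RNA, 6 per treatment and tissue, from 6 control and 7 phase shift cows, of which 11 cows had both tissues. The series text counts 6 phase shift cows where the labels name 7, of which cow 25 has only a liver and cow 21 only a mammary library. Whether these labels stand for 1 cow or 2 cannot be settled from the labels, and here they are kept as labelled. Each treatment had its own partition of the barn, and the effects of partition and of light cannot be told apart. No source used here gives the clock time of sampling. The series asks how a disrupted circadian rhythm before calving bears on gene expression in both organs.

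Library totals ran from 5.05 to 26.9 M (mega) counts, and 3 libraries stood apart from the rest of their tissue. The measure was a library's median rank correlation with the rest of its tissue, over tested genes other than the members, and it was 0.928 for the liver of phase shift cow 22 and 0.972 to 0.977 for the other 11 livers. In mammary it was 0.899 for phase shift cow 21 and 0.860 for control cow 26, and 0.946 to 0.969 for the other 10. The part of these libraries' other differences in the results was not tested beyond leaving them out. Hepatocyte, mammary epithelial, adipocyte, muscle and leukocyte markers could not be checked, since 0 of the 148 listed symbols could be matched to an ID.

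The 6 genes together took between 3.51 and 9.81% of all counts of a library. A member's share is its count as a percent of all gene counts in the same library. In liver the summed share was 5.04 to 6.85% in control cows (mean 5.73%, SD 0.641, n = 6) and 4.82 to 7.12% in phase shift cows (mean 6.19%, SD 0.773, n = 6). In mammary it was 3.51 to 9.29% in control cows (mean 4.78%, SD 2.23, n = 6) and 3.68 to 9.81% in phase shift cows (mean 5.11%, SD 2.35, n = 6). The treatments overlapped in both tissues, and the high end of each mammary group was 1 library. Each member had between 12547 and 973629 counts per library. The widest 95% Wilson interval of a member's share was therefore 0.0134 percentage points to either side, which covers counting error only.

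**Figure D1:**
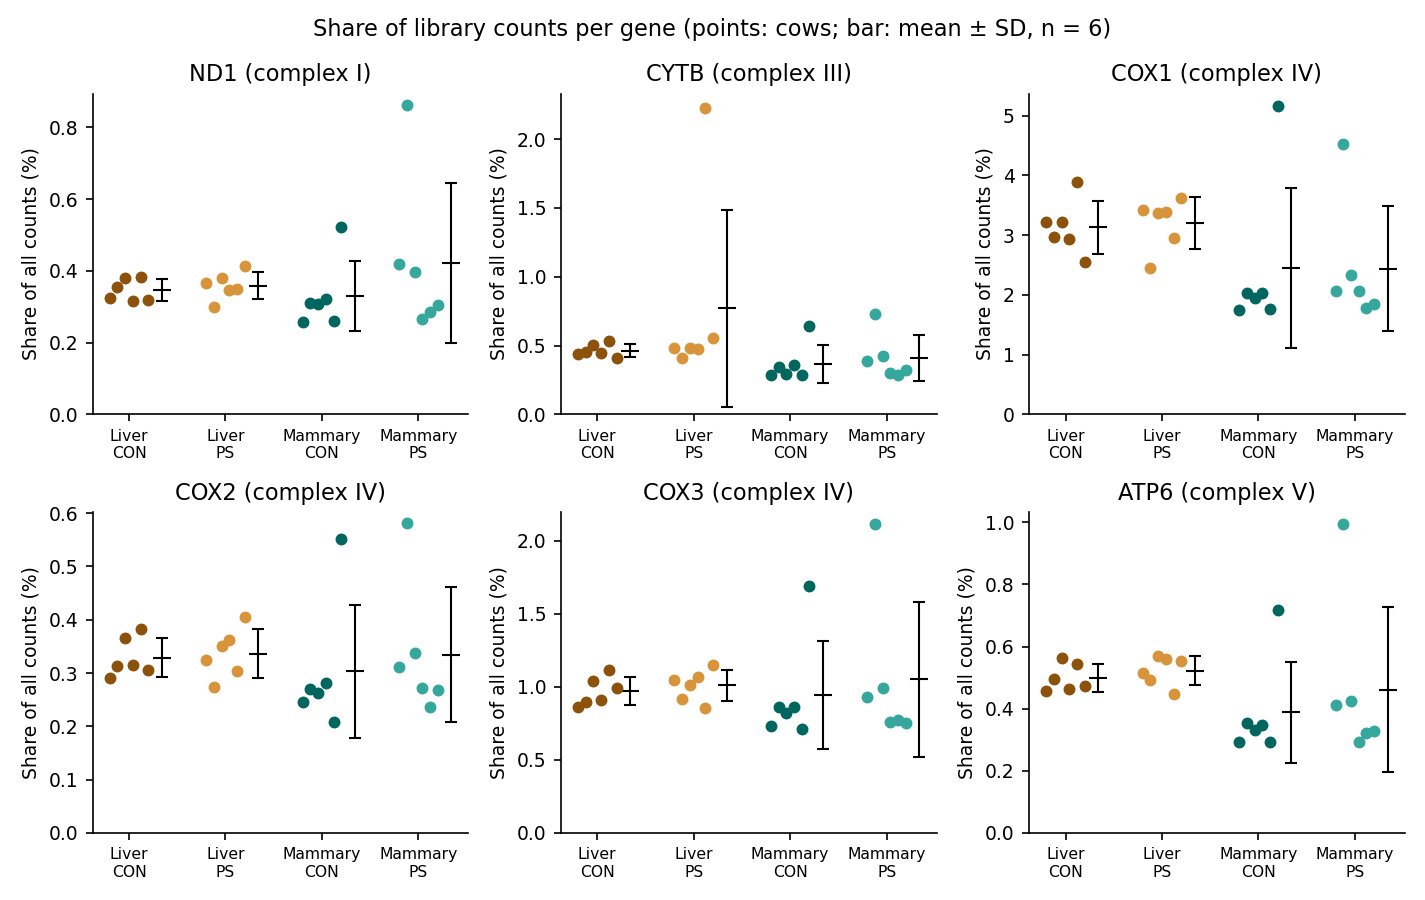
Share of all library counts (percent, linear axis from 0) of each of the 6 genes in liver and mammary of control (CON) and phase shift (PS) cows. Points are cows and bars are the mean ± SD of 6; CYTB in 1 phase shift liver, at 2.22%, and all 6 genes in 1 library of each mammary group lie far above the rest.

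The mammary gland held less of these transcripts than liver in most cows. In the paired comparison, all 6 members were lower in mammary at an adjusted p under 0.05, by 2.25-fold for ND1 to 3.12-fold for COX1, where 34.7% of the 16818 genes tested were called lower in mammary, 36.8% higher and 71.5% in either direction. The test was edgeR's quasi-likelihood test with the cow as a block over 11 cows, with Benjamini-Hochberg adjustment over all genes. This fit scales by the trimmed mean of M values (TMM), so a fold is relative to the typical gene of each tissue. The median log2 fold change, mammary minus liver, was -1.39 over the 6 members and 0.059 over all genes tested. In bulk tissue, fewer cells of a type and less RNA per cell cannot be told apart.

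COX1, the catalytic subunit of cytochrome c oxidase (complex IV), took 2.44 to 3.90% of liver counts, with a median of 3.22%, and 1.75 to 5.17% of mammary counts, with a median of 2.03% (12 libraries each). Its share was lower in the mammary library than in the liver library of the same cow in 10 of 11 cows, and 13.6% of genes tested were lower in mammary in at least 10 cows. The exception was control cow 26, with 2.55% in liver and 5.17% in mammary. The fitted log2 fold change was -1.64 (SE 0.24; edgeR adjusted p = 2.05e-05). COX2, which carries the site that accepts electrons from cytochrome c, took 0.274 to 0.405% in liver (median 0.319%) and 0.208 to 0.582% in mammary (median 0.271%), with a log2 fold change of -1.28 (SE 0.19; edgeR adjusted p = 2.79e-05). COX3, the remaining mitochondrially encoded core subunit of complex IV, took 0.857 to 1.15% (median 1.002%) and 0.710 to 2.12% (median 0.839%), with -1.25 (SE 0.19; edgeR adjusted p = 2.51e-05). For COX2 and COX3 the share was lower in mammary in 9 of 11 cows, and control cow 26 and phase shift cow 22 were the exceptions.

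CYTB, cytochrome b of complex III, took 0.406 to 2.22% of liver counts (median 0.476%) and 0.282 to 0.727% of mammary counts (median 0.331%). Its share was lower in mammary in 9 of 11 cows, with a log2 fold change of -1.50 (SE 0.19; edgeR adjusted p = 6.37e-06). The cow with the liver value of 2.22% has no mammary library under its label and so is not in this fit. ATP6, a subunit of the proton channel of ATP synthase, took 0.447 to 0.569% of liver counts (median 0.505%) and 0.291 to 0.994% of mammary counts (median 0.338%). It was lower in mammary in 10 of 11 cows, with a log2 fold change of -1.58 (SE 0.19; edgeR adjusted p = 3.06e-06). ND1, a membrane subunit of complex I, took 0.299 to 0.414% in liver (median 0.352%) and 0.258 to 0.862% in mammary (median 0.309%). The ranges of the tissues overlapped for all 6 members. The ND1 share was lower in mammary in 7 of 11 cows, with a log2 fold change of -1.17 (SE 0.17; edgeR adjusted p = 2.49e-05).

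The size of the tissue difference depended on the scaling. With scaling to total counts the median log2 fold change of all genes tested moved from 0.059 to 1.10, and that of the 6 members from -1.39 to -0.33. On the scale of shares, COX1 (-0.58, adjusted p = 0.00723), ATP6 (-0.52, adjusted p = 0.00334) and CYTB (-0.44, adjusted p = 0.0113) passed the edgeR threshold, where 15.0% of genes were called lower in mammary. On that scale COX2 (-0.23, adjusted p = 0.165), COX3 (-0.20, adjusted p = 0.193) and ND1 (-0.12, adjusted p = 0.423) did not pass the edgeR threshold. Of all genes called, 6188 were higher and 5838 lower in mammary with TMM scaling, and 12336 higher (73.3%) and 2520 lower with total counts, which is 88.3% of genes in either direction.

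The summed share was lower in mammary than in liver in 9 of 11 cows. In those 9 cows mammary was lower by 1.18 to 3.34 percentage points. Cow 22 of the phase shift group had 4.82% in liver and 4.90% in mammary, and control cow 26 had 5.04% in liver and 9.29% in mammary. Each of these cows had a library that stood apart, the liver of cow 22 and the mammary gland of cow 26. Over all 11 cows, the mammary share was 0.742 of the liver share (geometric mean) for the sum, 0.676 for COX1, 0.699 for ATP6, 0.739 for CYTB, 0.856 for COX2, 0.873 for COX3 and 0.922 for ND1. In the 9 cows without these, whose summed shares were the only ones higher in mammary, the ratio was 0.648 for the sum, 0.576 for COX1, 0.626 for ATP6, 0.653 for CYTB, 0.757 for COX2, 0.792 for COX3 and 0.830 for ND1. Without these cows the fitted differences of the 6 members ran from -1.88 (COX1) to -1.35 (ND1), with edgeR adjusted p at or below 5.26e-08. The pairs leave out the highest mammary share, 9.81% in phase shift cow 21, and the highest liver share, 7.12% in phase shift cow 25. If these labels stand for 1 cow, its summed share was higher in mammary. Over all 24 libraries, without a cow block, the members' median log2 fold change was -1.05, and they were 1.76 to 2.85-fold lower in mammary.

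**Figure D2:**
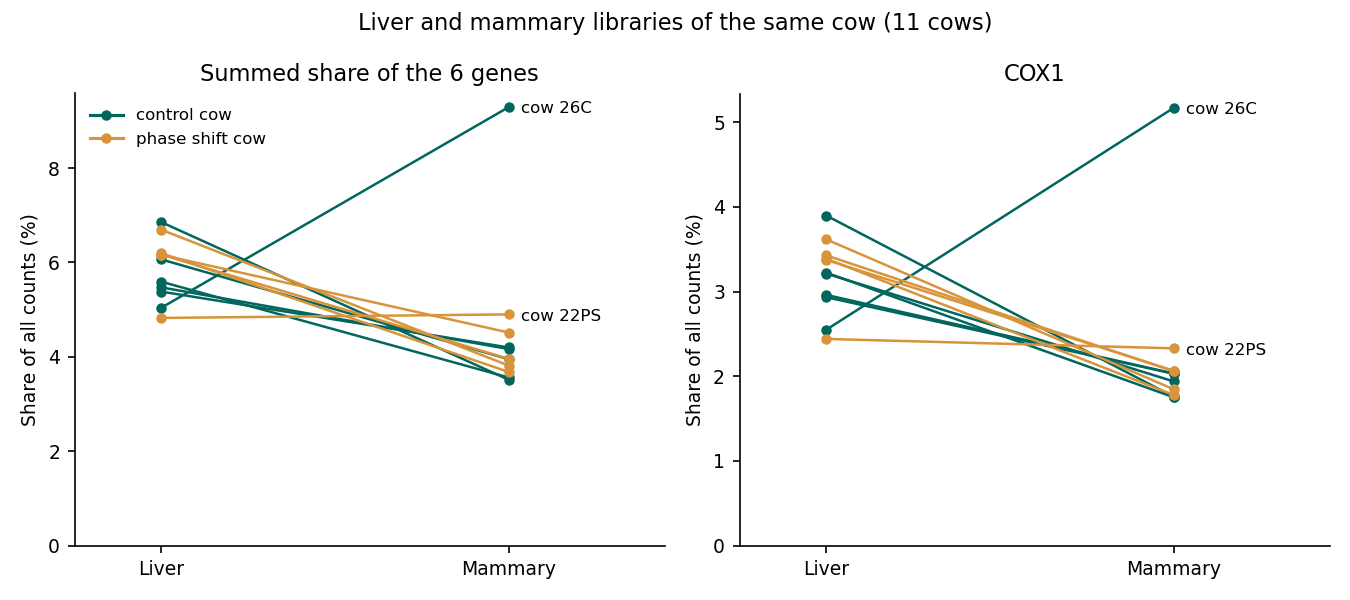
Share of all counts (percent, linear axis from 0) in the liver and mammary libraries of the 11 cows with both tissues, for the 6 genes summed (left) and COX1 (right), with 1 line per cow. The lines fall from liver to mammary in 9 of 11 cows for the sum and 10 of 11 for COX1, and control cow 26 rises to 9.29% and 5.17%.

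The make-up of the 6-gene pool also differed between the tissues. COX1 made up 50.6 to 57.6% of the counts of the 6 genes in 11 livers, phase shift cow 25 left out, and 45.6 to 55.6% in mammary. Its part of the pool was lower in mammary in 10 of 11 cows. COX3 went the other way, from 15.4 to 19.7% in those livers to 18.2 to 21.6% in mammary, and was higher in mammary in 10 of 11 cows. ND1, from 5.59 to 6.48% in those livers to 5.62 to 9.26% in mammary, and COX2, from 5.21 to 6.06% to 5.91 to 7.04%, were also higher in mammary in 10 of 11 cows. In all 4 cases the exception was control cow 26.

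CYTB and ATP6 kept a similar part of the pool in both tissues. CYTB held 7.61 to 8.41% in the 11 livers and 6.94 to 8.62% in mammary, and was higher in mammary in 7 of 11 cows. ATP6 held 7.93 to 10.2% and 7.36 to 10.1%, and was higher in mammary in 4 of 11 cows. These parts of the pool are a description without a test, and levels of different members are not ranked, since gene lengths were not used. Over 10 mammary libraries, cows 21 (phase shift) and 26 (control) left out, the coefficient of variation of a member's part of the pool was 2.79% (COX3) to 8.59% (ND1), against 9.28% (COX1) to 17.6% (ND1) for its share of all counts. The pool includes the member itself and cancels shifts common to all members, so lower values there are partly by construction.

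**Figure D3:**
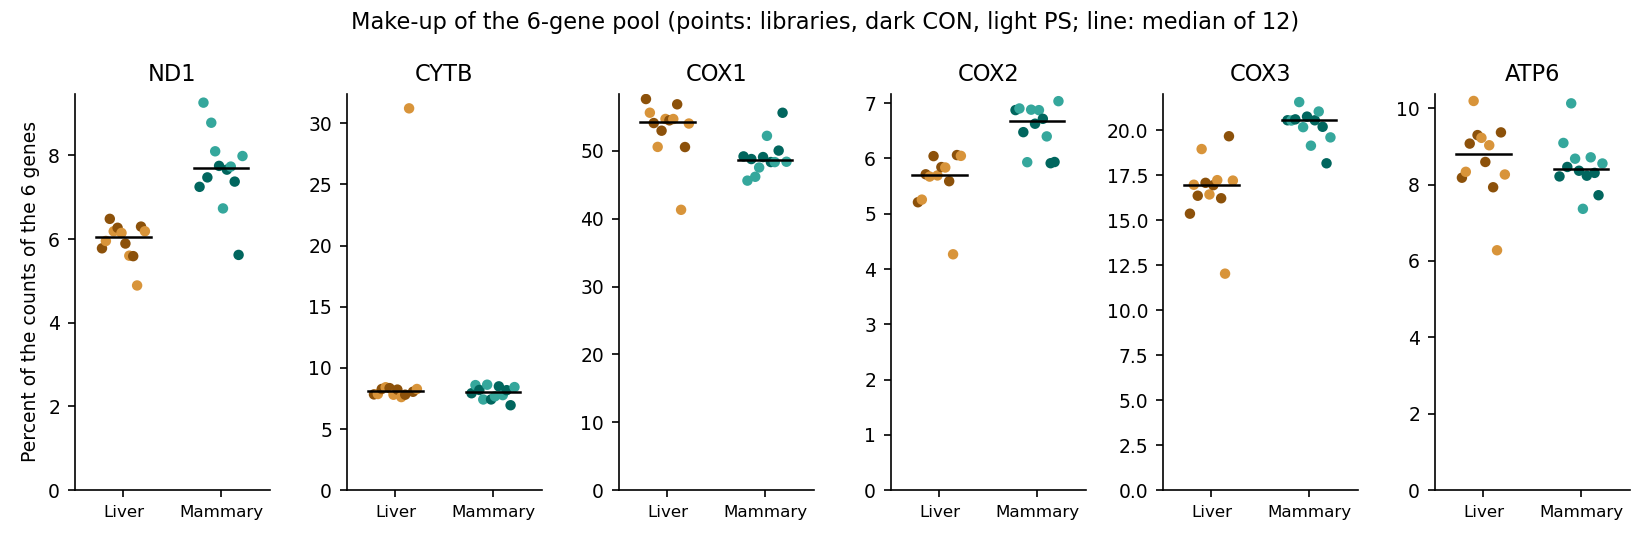
Percent of the counts of the 6 genes held by each gene (linear axes from 0, 1 per gene) in 12 liver and 12 mammary libraries. Points are libraries, dark for control and light for phase shift, lines are medians; COX1 lies lower and COX3, ND1 and COX2 lie higher in mammary, and CYTB in 1 liver reaches 31.2%.

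In the mammary gland all 6 members were high in the same 2 libraries. The summed share was 9.81% in phase shift cow 21 and 9.29% in control cow 26, and 3.51 to 4.90% in the other 10 libraries. Both values also lay above the highest liver, at 7.12%. Cow 21 exceeded the median of those 10 by 2.16-fold for COX2 to 3.03-fold for ATP6, and cow 26 by 1.71-fold for ND1 to 2.60-fold for COX1. The libraries differed in make-up: COX1 was higher in cow 26 (5.17%) than in cow 21 (4.53%), while COX3, ATP6 and ND1 were higher in cow 21 (2.12, 0.994 and 0.862%) than in cow 26 (1.69, 0.717 and 0.522%). These are the mammary libraries with the lowest rank correlations given above. Their totals were 9.26 M for cow 21 and 13.1 M for cow 26, the latter the deepest mammary library, and the part of depth or of other cell types in their shares was not tested.

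In liver no member differed between treatments past the threshold. In the edgeR test of 6 control against 6 phase shift livers, 0 of 6 members passed an adjusted p of 0.05, as did 0 of 13752 genes tested (0%). At an unadjusted p under 0.05 there were 813 genes, none of them a member. DESeq2 called 16 of the 3890 genes to which it gave an adjusted p (0.411%). None of the 16 was a member, and CYTB had no p in that run. All 6 fitted log2 fold changes, phase shift minus control with TMM scaling, were above 0, where 52.8% of genes tested were above 0. The median was 0.14 over the members and 0.013 over all genes tested. With scaling to total counts, the scale of shares, these medians were 0.056 and -0.063, and all 6 members were again above 0. The groups overlapped for every member, and 0.349% of genes tested had groups that did not overlap in share. Members share a library and a precursor RNA, so their common sign is not 6 separate observations.

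In liver, ATP6 had 0.457 to 0.564% in control cows (median 0.484%) and 0.447 to 0.569% in phase shift cows (median 0.533%). Its log2 fold change was 0.15 (SE 0.086; 95% interval -0.039 to 0.33; edgeR adjusted p = 0.734). For COX3, with 0.859 to 1.11% (median 0.952%) in control and 0.857 to 1.15% (median 1.03%) in phase shift cows, it was 0.14 (SE 0.089; edgeR adjusted p = 0.742). For ND1, with 0.317 to 0.383% (median 0.339%) and 0.299 to 0.414% (median 0.358%), it was 0.13 (SE 0.082; edgeR adjusted p = 0.740). With TMM scaling these fitted differences were 1.11-fold for ATP6, 1.10-fold for COX3 and 1.09-fold for ND1. Within a treatment the shares of these genes had coefficients of variation of 8.93 to 10.7%. The differences were thus about the size of the spread between cows. Their upper limits lay near 1.26-fold for ATP6 and COX3 and 1.24-fold for ND1. COX2 had 0.291 to 0.383% (median 0.314%) in control and 0.274 to 0.405% (median 0.337%) in phase shift cows, with a log2 fold change of 0.11 (SE 0.094; edgeR adjusted p = 0.788). COX1 had 2.55 to 3.90% (median 3.09%) and 2.44 to 3.62% (median 3.38%), with 0.10 (SE 0.099; edgeR adjusted p = 0.808). The 95% intervals of COX1 and COX2 ended at 1.25-fold and 1.24-fold.

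CYTB had the widest liver interval, and 1 library set it. Control livers had CYTB shares of 0.438, 0.453, 0.506, 0.442, 0.535 and 0.406% in cows 19, 21, 23, 24, 25 and 26. Phase shift livers had 0.484, 0.406, 0.481, 0.471, 2.22 and 0.553% in cows 19, 22, 23, 24, 25 and 26. Cow 25 alone lay outside the range of 0.406 to 0.553% that held the other 11 livers. The fitted log2 fold change was 0.79 (SE 0.40; 95% interval -0.098 to 1.68; edgeR adjusted p = 0.734) and 0.13 (SE 0.090; 95% interval -0.060 to 0.33; edgeR adjusted p = 0.734) without cow 25. Without that library ATP6 had 0.19 (95% interval 0.024 to 0.36) and COX3 0.19 (95% interval 0.012 to 0.37), intervals above 0 before adjustment, with an edgeR adjusted p of 0.712 for both. In the same fit 840 of 13864 genes had an unadjusted p under 0.05. DESeq2 gave CYTB no p in liver.

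Among the 6 genes, CYTB alone was high in cow 25. This library had 259409 CYTB counts, which is 22239 counts per 1 M library counts (CPM) and 4.72 times the median of the other livers. Its other 5 members stood at 0.846 (COX3) to 0.982 (ND1) times that median. CYTB made up 31.2% of the pool of 6 there, and the remaining 5 members summed to 4.90% of counts, within the 4.42 to 6.32% of the other livers. Its total was 11.7 M counts, and its median rank correlation with the other livers was 0.976, within their range.

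A further row of the table was high beside CYTB in that library. ENSBTAG00000043582, which is listed 2 rows after CYTB and was singled out after its values were seen, had 2726 CPM in cow 25 and 379 to 709 CPM in the other 11 livers. Its ratio to their median was 4.78. Of the rows listed from ND1 to this one with at least 1000 counts per library on average in the other livers, the 13 other than these 2 had ratios of 0.837 to 1.07. Of 575 genes with a median of at least 200 CPM in the other livers, 2 were 2-fold or more above that median in cow 25, CYTB and this row. The file does not name it, and no mammary library is labelled as phase shift cow 25.

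**Figure D4:**
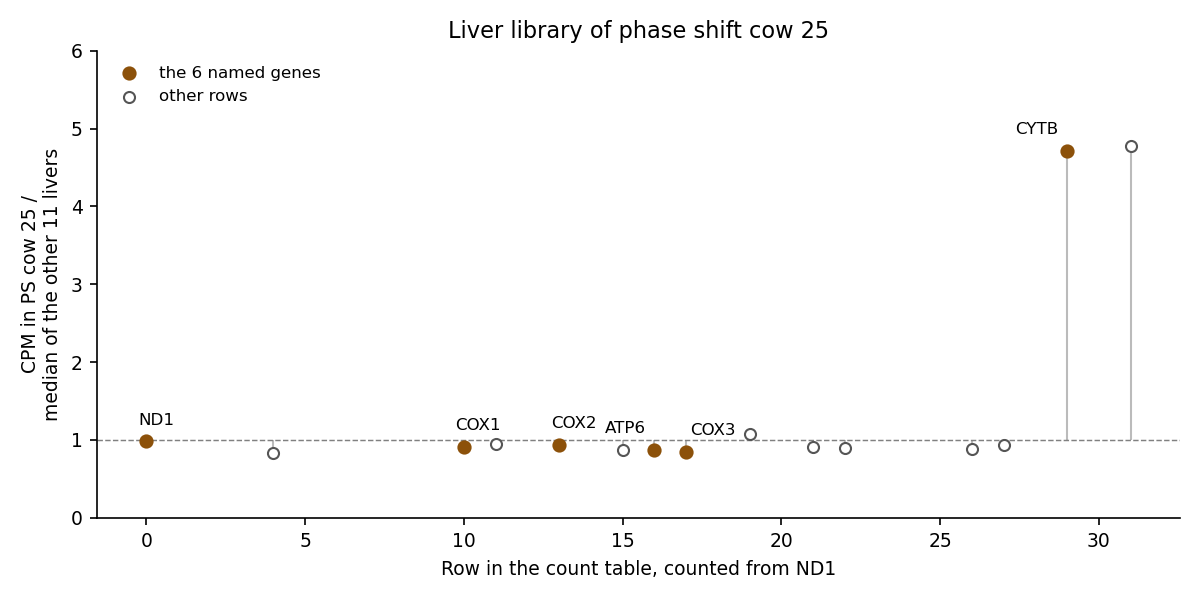
Ratio of CPM in the liver of phase shift cow 25 to the median of the other 11 livers (linear axis), by row of the count table counted from ND1, for rows with at least 1000 counts per library on average. CYTB and the row listed 2 after it stand at 4.72 and 4.78, and the other 13 rows at 0.837 to 1.07.

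In the mammary gland no member differed between treatments past the threshold. In edgeR, 0 of 6 members and 0 of 15547 genes tested (0%) passed, 739 genes had an unadjusted p under 0.05, none of them a member, and DESeq2 called 0 genes and gave COX1 no p. Log2 fold changes ran from -0.14 for COX1 (SE 0.48; edgeR adjusted p = 0.989) to 0.29 for ND1 (SE 0.41; edgeR adjusted p = 0.964). The 95% intervals were wide, at 0.443 to 1.86-fold for COX1 and 0.656 to 2.28-fold for ND1. CYTB had 0.048 (SE 0.40), COX2 0.034 (SE 0.40), COX3 0.066 (SE 0.44) and ATP6 0.16 (SE 0.46), with edgeR adjusted p of 0.984 to 0.999. Of the 6 values 5 were above 0, where 48.7% of genes tested were. The members' median was 0.057 with TMM scaling and 0.15 with scaling to total counts, against -0.0081 and 0.055 over all genes tested. COX1 had -0.0066 with total counts. The groups overlapped for every member, where 0.167% of genes tested had groups that did not overlap in share.

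The wide spread in mammary lay in 1 library of each group, that of cow 21 (phase shift) and that of cow 26 (control). COX1 had 1.75 to 2.03% in the other 5 control cows and 1.78 to 2.33% in the other 5 phase shift cows. ATP6 had 0.292 to 0.352% and 0.291 to 0.425%, and ND1 had 0.258 to 0.322% and 0.266 to 0.418%. Without both libraries, log2 fold changes of the 6 members were 0.038 (COX3) to 0.16 (ND1), with standard errors of 0.13 to 0.14 and edgeR adjusted p of 0.922 to 0.974. Leaving out only cow 21 gave -0.21 for ND1, -0.42 for COX3 and -0.56 for COX1, and leaving out only cow 26 gave 0.67, 0.54 and 0.49. Without cow 21 all 6 members were below 0, and without cow 26 all 6 were above 0. Leaving out 1 of control cows 19, 21, 23, 24 and 25 also brought COX2 below 0 each time, and CYTB or COX3 in some cases, at -0.065 to -0.012. The sign of these small differences was therefore not fixed by the data.

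**Figure D5:**
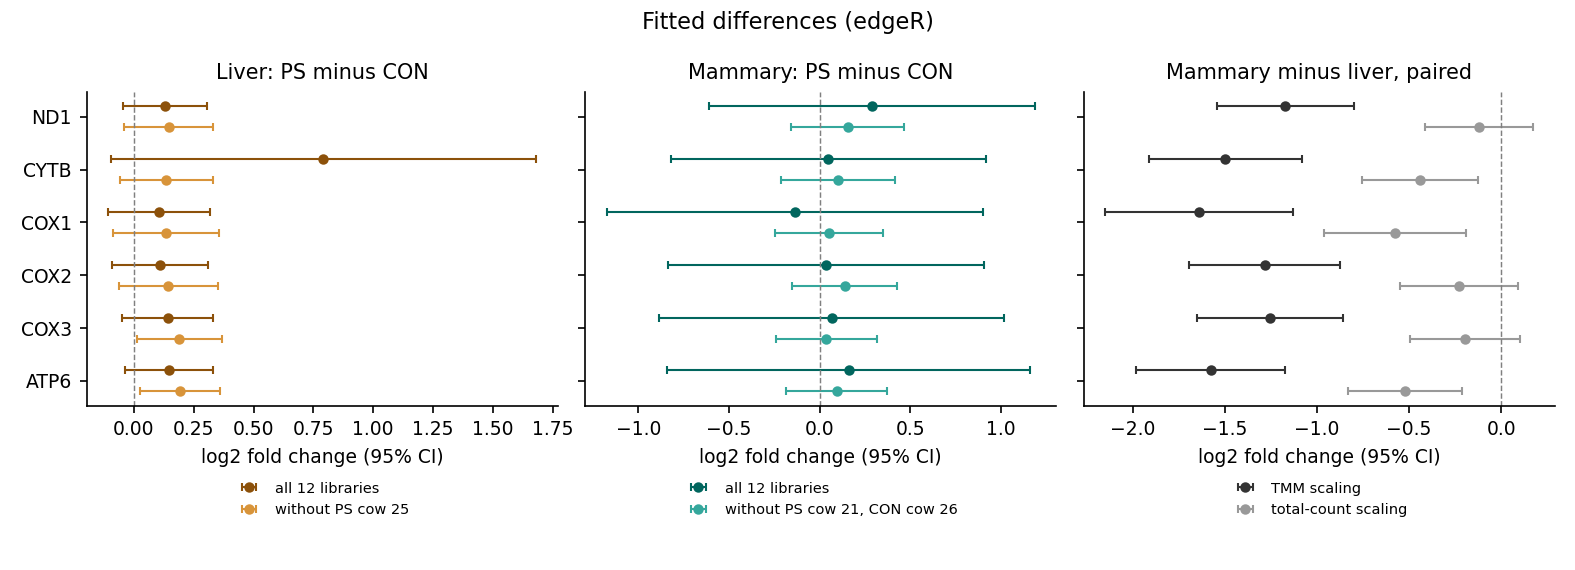
Fitted log2 fold changes with 95% confidence intervals (edgeR) for phase shift minus control in liver (left) and mammary (middle) and for mammary minus liver (right), by gene. The CYTB interval in liver narrows without phase shift cow 25, all mammary intervals narrow without the 2 libraries that stand apart, and the 6 tissue differences lie below 0 under both scalings, with intervals that include 0 for ND1, COX2 and COX3 under total counts.

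No member had a difference between its mammary and liver responses that passed the threshold. The edgeR tissue-by-treatment term, mammary response minus liver response over the 11 cows with both tissues, ran from -0.41 for COX3 (SE 0.36) to -0.22 for ND1 (SE 0.35), with adjusted p of 0.933 to 0.945. Of 16818 genes, 0 passed (0%), 694 had an unadjusted p under 0.05, none of them a member, and DESeq2 and limma-voom called 0. Without control cow 26, the values lay between -0.15 and 0.041.

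Symbols of other respiratory chain genes could not be matched to IDs, so no count over them is given. The rows listed among the members are described without names. By the row order given above they lie among the mitochondrial genes, so they are no stand-in for nuclear-encoded subunits. Some may be further mitochondrial messengers, and others transfer RNA genes, which lie between the messengers. Most of these rows had a median under 10 CPM in liver. Others were as abundant as members, such as ENSBTAG00000043563 (10796 CPM) and ENSBTAG00000043577 (8299 CPM). These 2 values are medians of 11 livers, phase shift cow 25 left out. The count tables list 24 further rows between ND1 and CYTB, of which 21 passed the filter on low counts in each comparison. This list was chosen after the tables were seen. In the paired edgeR fit 17 of the 21 were lower and 0 higher in mammary, with a median log2 fold change of -1.43, where 34.7% of all genes tested were lower and their median was 0.059. Between treatments 0 of 21 passed in liver (median log2 fold change 0.048) and 0 of 21 in mammary (median -0.039). In mammary their summed share was 6.62% in phase shift cow 21 and 4.46% in control cow 26, and 1.96 to 2.70% in the other 10.

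The genes whose pattern was most like that of the members were listed partly among the same rows. Likeness was Pearson's correlation with the mean log2 CPM of the 6 members over the 12 libraries of a tissue, given as a description. In mammary the closest genes were ENSBTAG00000043559 (r = 0.995) and ENSBTAG00000043577 (r = 0.995), and 6 of the 10 closest were listed between ND1 and CYTB. All points share their library totals, and the 2 libraries with high shares weigh on every such value. In liver the closest were ENSBTAG00000001881 (r = 0.884) and ENSBTAG00000006831 (r = 0.856), and 0 of the 10 closest were listed between ND1 and CYTB. Without phase shift cow 25, whose CYTB enters the mean, 2 of the 10 closest in liver were. The lists of the tissues were not compared by a test.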

How the data were processed

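Ribosomal RNA was removed before library preparation and reads were paired, per the labels' protocols. The submitters' processing notes name Trimmomatic 0.36, STAR 2.5.2b, featureCounts of Subread 1.5.2 and DESeq2, and the build ARS-UCD1.2. The authors deposited raw whole-number counts per Ensembl ID, which were used here; their normalized and regularized log tables were not used. No source used here gives the strand setting, the annotation release or the treatment of reads with several matches. Reads from nuclear copies of mitochondrial genes, from overlapping genes or from the opposite strand may be included or lost.

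Tests used edgeR 4.0.16 (quasi-likelihood, robust dispersion, TMM, filterByExpr with a minimum count of 10 and total of 15; R 4.3.3), with Benjamini-Hochberg adjustment over all genes and a threshold of 0.05. Alternatives were DESeq2 1.42.0 and limma-voom (limma 3.58.1), total-count scaling, no filter, blocks and left-out libraries. Cows pair the tissues by their labels: the deviations of a cow's libraries from their group means correlated at -0.0052 to 0.18 across genes. Log2 CPM used a prior count of 2. Within a tissue, replicates are separate cows.

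The 6 members are named throughout; other genes were named by likeness to the members' mean (2 per tissue), and 1 further row, ENSBTAG00000043582, was chosen after its values were seen. Members and lists were chosen with earlier results of these data known, as were the libraries left out. On simulated data with 200 changed genes, edgeR recovered 65% of 2-fold changes in liver, 33% in mammary, 65% for the paired tissue difference and 6.5% for the difference between responses. The latter simulation had 23.5% false calls. Changed genes were drawn at random, with equal numbers raised and lowered, where the real paired fit called 71.5% of genes. Counts were drawn gene by gene, with no shift set for a single library. The recovery rates are therefore not those of the 6 members in these comparisons. The RefSeq table (37063 genes) lists an Ensembl ID for 0 genes, so the lists of nuclear-encoded subunits and cell type markers were not used.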

Additional observations from a re-analysis of the deposited data

Results flagged for a closer look

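In 15 of 28 groups of 6 values, 1 library lay so far from the others that its gap to the next, as a share of the group's range, exceeded Dixon's 95% critical value. Chance alone would give about 1.4 such groups, and the members share their libraries, so the 15 are not independent. In liver this was CYTB in phase shift cow 25, at 2.22% where the next phase shift cow had 0.553%.

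In mammary it was each member and their sum in control cow 26 and in phase shift cow 21. In control cow 26 the sum was 9.29% where the next control cow had 4.20%, with COX1 at 5.17%, COX3 at 1.69%, ATP6 at 0.717%, CYTB at 0.645%, COX2 at 0.552% and ND1 at 0.522%. In phase shift cow 21 the sum was 9.81% where the next phase shift cow had 4.90%, with COX1 at 4.53%, COX3 at 2.12%, ATP6 at 0.994%, ND1 at 0.862%, CYTB at 0.727% and COX2 at 0.582%.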

How the results depend on the processing

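All 6 members kept a value below 0 for mammary minus liver in every alternative run. They passed the edgeR, DESeq2 or limma-voom threshold in each, except COX2, COX3 and ND1 under total-count scaling, whose values stand in the text. In liver all fitted treatment differences stayed above 0 and none passed. Liver genes called numbered 0 in the main edgeR test, 16 in DESeq2, 2 with the shared cow number as a replicate block and 0 to 1 when each library was left out, the 1 without control cow 26. The cause was not tested. Paired tissue calls ran from 11564 to 12315 when each cow was left out. The summed liver share rose to 8.39% in control and 8.95% in phase shift cows when the 50 most abundant other genes were left out of the total, by its construction.

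Treatment differences in mammary changed sign. Leaving out each library gave -0.21 to 0.67 for ND1, -0.34 to 0.50 for CYTB, -0.56 to 0.49 for COX1, -0.34 to 0.52 for COX2, -0.42 to 0.54 for COX3 and -0.39 to 0.66 for ATP6. With the replicate block COX3 had -0.00087, and without both libraries that stand apart COX1 had 0.052. For the difference between responses, leaving out each cow gave -0.33 to 0.041 for ND1, -0.41 to 0.016 for CYTB and -0.40 to 0.026 for COX2. That difference was 0.16 for ND1 and 0.016 for ATP6 without a cow block, and 0.098 for ND1 and 0.0047 for COX2 with a random cow in limma-voom.

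The labels do not say whether cow numbers shared by the treatments pair the cows. Same-numbered deviations correlated at -0.085 to 0.10 in liver and -0.38 to 0.17 in mammary. A control library matched its own number best in 3 of 5 cases in liver and 0 of 5 in mammary. These values cannot settle the pairing, since both tissues of the same cow also correlated weakly, at -0.0052 to 0.18. In mammary the block gave 0 calls.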
